A study of Mus musculus with 3 samples.

Results

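The genes described are major urinary protein (Mup) genes together with 4 hepatic targets of growth hormone: Cish, Socs2, Hsd3b5 and Slco1a1. They were followed over 3 single-colour arrays of mouse hepatocyte RNA. Members were taken by name, as every non-control spot whose gene name in the scanner output was one of 10 listed names. 9 of the 10 were found, on 13 of 39429 probes and 22 of 43020 spots, out of 31829 gene names on the array. No spot carried the name Mup1, which is not analysed here. All 13 probes were well above background on all 3 arrays, so no member was lost to the filter on dim signal.

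Hepatocytes had been freed with collagenase from the livers of male, wild-type C57BL/6 mice, fasted overnight and 22 weeks old. The first array carried hepatocyte RNA from standard-diet animals, the second from animals fed a high-fat diet and given control IgG (HFD-IgG), and the third from animals fed the same diet and given a blocking antibody to VLA-4, an integrin of leukocytes (anti-VLA-4). Diets began at 6 weeks of age and lasted 16 weeks, and from diet week 10 the injections were given into the peritoneum, 2 a week for 6 weeks. Because no injection is listed for animals on the standard diet, diet and injection cannot be told apart, and the number of animals behind an array is not given in the labels.

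With 1 array in each group there were no replicates and no p-values, and the spread between mice or preparations is unknown. The 75th percentile of signal used for scaling was 574, 500.3 and 514 on the standard-diet, HFD-IgG and anti-VLA-4 arrays, 57.3% to 66.5% of spots were well above background, and 0 spots were saturated. The scanner's own error of a member's signal was 10.0% to 11.2%, and errors printed after ± are that error carried to a log2 difference. It covers error within an array only. The anti-VLA-4 array lay on a second slide, apart from the others, so the slide and the antibody cannot be told apart.

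Growth hormone binds its receptor on hepatocytes and activates the kinase JAK2, which phosphorylates the transcription factor STAT5B. In male rodents the hormone arrives in pulses, and the pulsed activation of STAT5B drives a male pattern of liver expression, while the more continuous female pattern of release favours other genes. Mup genes encode small secreted lipocalins that are filtered into urine, where they bind volatile pheromones, and they are classic male-biased targets of this pathway. Cish and Socs2 encode SOCS-family proteins that STAT5 induces and that damp the same receptor. Hsd3b5 encodes a male-specific 3-ketosteroid reductase of mouse liver, and Slco1a1 encodes the basolateral organic anion transporter OATP1A1.

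Sequence sets the resolution of the Mup measurements, because the family consists of near-identical copies clustered on chromosome 4. The RefSeq gene table used for naming holds 22 genes called Mup and a number. The array probes are 60 bases long. The pair below is shown because it is the closest full-length pair among Mup probes of different genes; capitals mark the bases that differ between them. The Mup3 probe lies at chr4:61745794-61745853 on the minus strand and the Mup6 probe at chr4:60018835-60018894 on the plus strand (mm9, as in the scanner output).
Mup3 probe: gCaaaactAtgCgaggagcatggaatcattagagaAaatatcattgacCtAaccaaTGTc
Mup6 probe: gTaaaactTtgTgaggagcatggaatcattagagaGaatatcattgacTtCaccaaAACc

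These probes share 51 of 60 bases, with a longest identical run of 23 bases. A second pair overlaps over 25 bases, shown because 1 of the probes belongs to Mup4 and the other to Mup5; again the capitals mark differing bases.
Mup4 probe 2, overlap: CctagtctgtAtTcatgcagaagaa
Mup5 probe, overlap: ActagtctgtGtCcatgcagaagaa

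Here 22 of 25 bases were the same. Mup4 probe 1 and Mup20 probe 1 overlapped over 52 bases with 45 identical. Signals of Mup probes are therefore uncertain between copies, and a value below belongs to a probe rather than to a single gene. How many transcripts each probe matches was not examined here.

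RefSeq promoter windows (GRCm38.p6, 250 bases before to 50 after each annotated start) were available for 6 members: Cish, Hsd3b5, Slco1a1, Mup3, Mup4 and Mup21. They were searched on both strands for TTCNNNGAA, the palindromic letters that STAT5 and other STAT factors recognise. They were also searched for TATATAA, letters of the TATA-box type. TTCNNNGAA was present in 8.30% of all 32851 windows. Among the 6 members it was present in that of Cish, which held 2 copies, as did 0.457% of all windows counting those with 2 or more. The stretch is shown with the copies in capitals; it lies at chr9:107296654-107296683 on the plus strand, with the first copy beginning at position 1 and the second at position 12 counted from the RefSeq start.
Cish start region: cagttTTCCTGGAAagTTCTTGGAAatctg

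TATATAA was present in 3.24% of all windows and in those of Mup3, Mup4 and Mup21. Of 14 windows of Mup genes in the table, 13 held it and 0 held TTCNNNGAA. The Mup3 (chr4:62087315-62087344) and Mup4 (chr4:59960683-59960712) stretches, both on the minus strand, are shown with TATATAA in capitals, and that of Mup21 (chr4:62150836-62150865, minus strand) had the same letters as Mup3.
Mup3 start region: cactgaaaccagagagTATATAAggacaag
Mup4 start region: cactgaacccagagcaTATATAAagacaag

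These matches describe letters in the windows only.

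Across the arrays, the largest differences of Cish, Slco1a1, Socs2 and Hsd3b5 were 7.63-fold, 5.07-fold, 4.16-fold and 2.78-fold. No Mup probe reached 2-fold in any comparison except with normexp background correction on all spots. The plot of differences from the standard-diet array, without that correction, shows this contrast. With that correction, Mup21 (-1.25), Mup6 (-1.43), Mup9 probe 2 (-1.32) and Mup2 (-1.03) reached 2-fold for HFD-IgG over standard diet. Mup5 (-1.30) and Mup20 probe 2 (-1.10) did so for anti-VLA-4 over standard diet. Hsd3b5 (-0.29 for HFD-IgG over standard diet, 0.62 for anti-VLA-4 over HFD-IgG) and the 3 Socs2 probes then reached 2-fold in no comparison. Values are signals divided by the 75th percentile of the array (relative signal), and a difference was called when it was at least 2-fold. In bulk RNA, fewer expressing cells and less RNA per cell cannot be told apart.

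**Figure D1:**
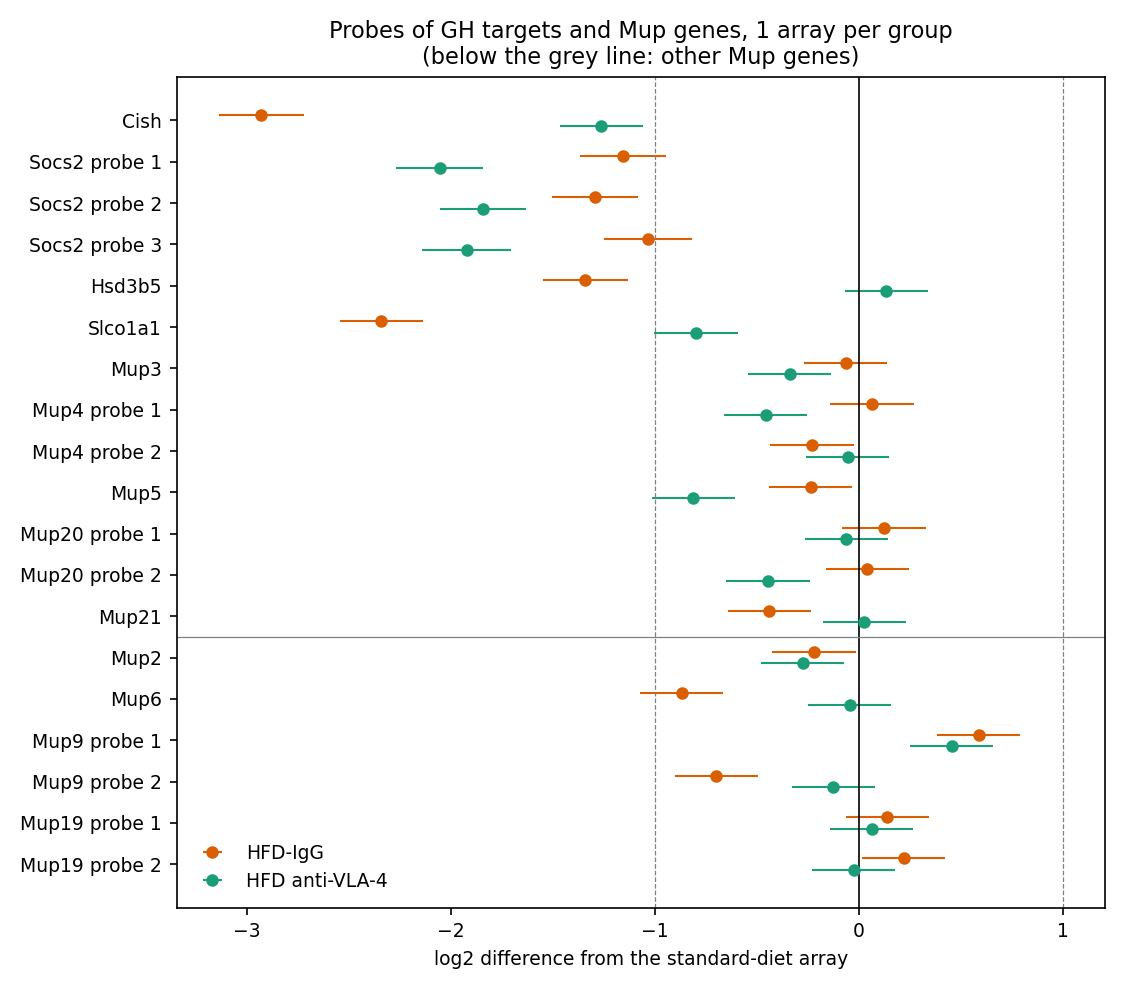
Log2 difference of each probe from standard diet, for HFD-IgG (orange) and anti-VLA-4 (green), with 1 array per group. Bars are the scanner error of the difference and dashed lines mark 2-fold. Cish and Slco1a1 lie furthest left on the HFD-IgG array (-2.93 and -2.34), the 3 Socs2 probes lie further left on the anti-VLA-4 array than on the HFD-IgG array, and Mup probes stay inside the dashed lines.

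Cish, the STAT5-induced inhibitor that targets activated growth hormone receptor, had a relative signal of 1.78 with standard diet, 0.234 with HFD-IgG and 0.743 with anti-VLA-4 (probe at chr9:107204196-107204255, plus strand, mm9). The standard-diet array was highest and the HFD-IgG array lowest, with the anti-VLA-4 array between them. The HFD-IgG signal was 7.63-fold below the standard-diet signal (log2 difference -2.93 ± 0.21), lower than the difference of all but 0.0864% of the 22002 genes compared. The anti-VLA-4 signal was 3.18-fold above the HFD-IgG signal (1.67 ± 0.21) and 2.40-fold below the standard-diet signal (-1.26 ± 0.20).

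Slco1a1, the uptake transporter, had a relative signal of 4.66, 0.919 and 2.68 on the standard-diet, HFD-IgG and anti-VLA-4 arrays (chr6:141856493-141856552, minus strand). The order of the arrays was that of Cish. HFD-IgG was 5.07-fold below standard diet (-2.34 ± 0.20) and anti-VLA-4 was 2.91-fold above HFD-IgG (1.54 ± 0.20). Anti-VLA-4 against standard diet was 1.74-fold lower (-0.80 ± 0.20), which is outside the scanner error but under the 2-fold threshold.

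Hsd3b5, the male-specific steroid reductase, had a relative signal of 0.853 with standard diet, 0.337 with HFD-IgG and 0.937 with anti-VLA-4 (chr3:98422576-98422635, minus strand). Here the HFD-IgG array was low and the other two were near each other. HFD-IgG was 2.53-fold below standard diet (-1.34 ± 0.21) and anti-VLA-4 was 2.78-fold above HFD-IgG (1.48 ± 0.21). Between anti-VLA-4 and standard diet the difference of 0.14 ± 0.20 was within the scanner error.

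Socs2, the feedback inhibitor whose loss causes gigantism in mice, was measured by 3 probes on chromosome 10, minus strand, and they ran in another order. Probe 3 (94875066-94875125) was spotted 10 times on each array. Its lowest, median and highest spots were 0.380, 0.400 and 0.440 on the standard-diet array. They were 0.151, 0.208 and 0.259 with HFD-IgG, and 0.0922, 0.104 and 0.136 with anti-VLA-4. The spots of the 3 arrays did not overlap, with 0 shared values in each pair, and the HFD-IgG spots scattered most (SD of log2 signal 0.28, against 0.09 and 0.19). Repeated spots show the error within an array and are not replicates of a group.

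The other Socs2 probes gave the same order. Probe 1 (94875468-94875527) had 0.484, 0.217 and 0.116 on the standard-diet, HFD-IgG and anti-VLA-4 arrays, and probe 2 (94875187-94875246) had 0.461, 0.188 and 0.128. HFD-IgG was below standard diet by 2.23-fold, 2.45-fold and 2.05-fold on probes 1, 2 and 3 (log2 differences -1.16, -1.29 and -1.03). Anti-VLA-4 was below HFD-IgG by 1.86-fold, 1.47-fold and 1.85-fold, all outside the scanner error (0.22 to 0.23 on the log2 scale) and all under 2-fold. With quantile scaling these log2 differences were -0.55, -0.15 and -0.50, and that of probe 2 was within the scanner error. Anti-VLA-4 was below standard diet by 4.16-fold, 3.59-fold and 3.79-fold, a difference that was under 2-fold on all 3 probes with normexp on all spots (-0.39, -0.48 and -0.16). In that fit the HFD-IgG difference from standard diet of probes 1 and 3 was above 0 (0.06 and 0.31) and that of probe 2 was -0.05. After 9 spots with a very bright local background were left out of that fit, an alternative chosen after seeing the data, the values were -0.83, -0.64 and -0.96 for probes 1, 3 and 2, and those of anti-VLA-4 over standard diet were past 2-fold again (-1.35, -1.18 and -1.40).

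**Figure D2:**
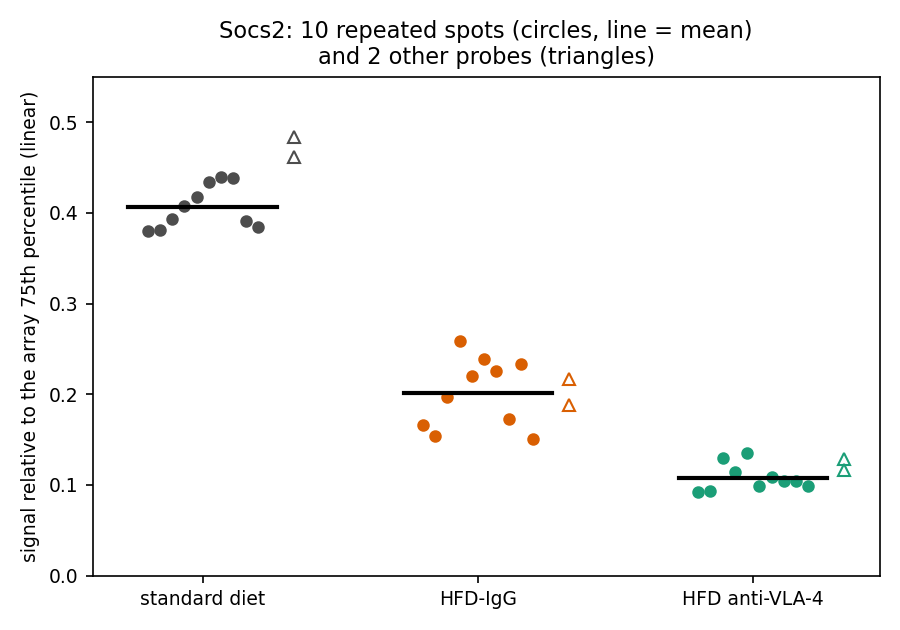
Socs2 relative signal on a linear axis for each array: circles are the 10 repeated spots of probe 3, the line is their mean, and triangles are probes 1 and 2. The spot means lie at 0.407, 0.202 and 0.108 in that order, and no spot of one array lies within the range of another.

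Over the 9 members measured, 4 were at least 2-fold lower with HFD-IgG than with standard diet (Cish, Slco1a1, Hsd3b5 and Socs2), while 2.41% of all 22002 genes were. None of the members (0 of 9) was at least 2-fold higher, against 20.4% of all genes. Their median difference was -0.44, beside 0.04 for all genes. For anti-VLA-4 over HFD-IgG, 3 members were at least 2-fold higher (Cish, Slco1a1 and Hsd3b5), against 1.9% of 22589 genes, and 0 were lower, against 16.5%; the medians were -0.18 for members and -0.06 for all genes. For anti-VLA-4 over standard diet, 2 members were lower (Cish and Socs2) against 3.39% of 20334 genes, 0 were higher against 7.98%, and the medians were -0.46 and 0.00. With normexp on all spots the lower members in that last comparison were 3, namely Cish (-1.22), Mup5 (-1.30) and Slco1a1 (-1.13), and Socs2 was not among them. The shares of all genes include genes well above background on 1 array of a pair only, whereas every member was so on both. With the filter on both arrays, 1534 genes were higher and 366 lower of 17288 in the first comparison. The counts were 278 and 1235 of 18259 in the second, and 1021 and 378 of 17504 in the last. The HFD-IgG array enters the first 2 of these comparisons with opposite sign, so a low value there makes one difference negative and the other positive. The members were chosen with earlier results of these data known, and the shares are descriptions.

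The difference of Cish and Slco1a1 between HFD-IgG and standard diet was past 2-fold under all 5 alternative values computed for single probes. Among these the deposited table repeats the main values, so its agreement was fixed in advance. Hsd3b5 was at -0.29 with normexp on all spots and -0.97 without the 9 bright-background spots. For anti-VLA-4 over HFD-IgG, normexp on all spots gave 0.57 for Cish and 0.62 for Hsd3b5, both under 2-fold, and 1.04 for Slco1a1.

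**Figure D3:**
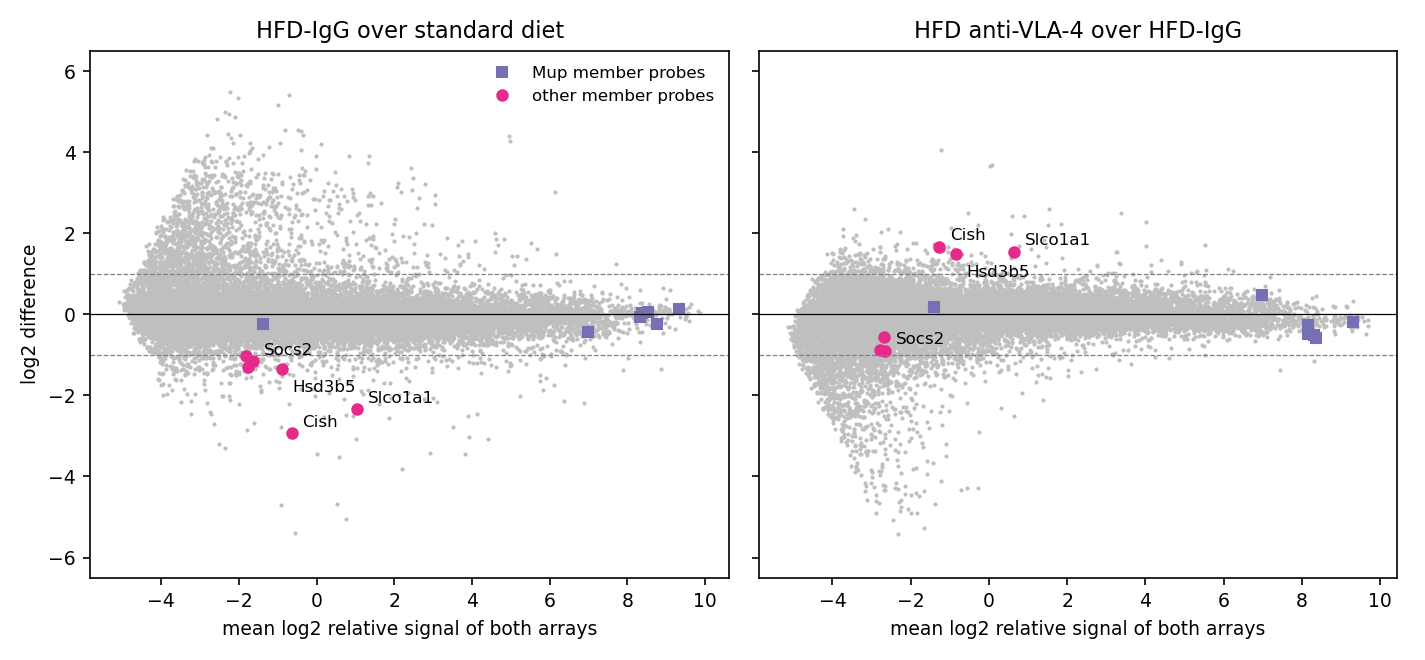
Log2 difference against the mean log2 relative signal of both arrays, for genes well above background on both arrays (grey) and for member probes (squares, Mup; circles, other members). The left panel is HFD-IgG over standard diet and the right panel anti-VLA-4 over HFD-IgG; dashed lines mark 2-fold. Cish and Slco1a1 lie below the grey band on the left (-2.93 and -2.34) and above it on the right (1.67 and 1.54), and the Mup squares lie between the dashed lines, all at the bright end except Mup4 probe 2.

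The Mup family members gave smaller differences. Mup3 had a relative signal of 327, 313 and 258 on the standard-diet, HFD-IgG and anti-VLA-4 arrays (log2 difference from standard diet -0.06 and -0.34 for the high-fat diet arrays in that order). The anti-VLA-4 array was lowest, by more than the scanner error of 0.20, and the other two were within it. Mup5 (chr4:61496097-61496156, minus strand) had 474, 403 and 270. It showed the widest range of the member Mup probes, with HFD-IgG 1.18-fold and anti-VLA-4 1.76-fold below standard diet (-0.24 and -0.81).

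Mup4 probe 1 (chr4:59969824-59969883, minus strand) had 364, 381 and 265, and probe 2 (chr4:59973383-59973442, minus strand) had 0.416, 0.355 and 0.400. Probe 1 was lower on the anti-VLA-4 array than on HFD-IgG by 1.44-fold (-0.52), while probe 2 gave 0.17, within the scanner error, so the probes named Mup4 disagreed. Mup20 encodes darcin, the urinary pheromone that attracts females to male scent. Its probe 1 (chr4:61711407-61711466, minus strand) had 617, 672 and 591 and its probe 2 (chr4:61713671-61713730, minus strand) had 326, 336 and 240. HFD-IgG and standard diet were within the scanner error on both probes (0.12 and 0.04). Against HFD-IgG, anti-VLA-4 was at -0.18, within the scanner error, on probe 1 and at -0.49 on probe 2.

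Mup21 (chr4:61808866-61808925, minus strand) had its lowest signal on HFD-IgG, as did Mup4 probe 2 but no other member Mup probe. The relative signal of Mup21 was 147 on the standard-diet array, 108 on HFD-IgG and 150 on anti-VLA-4. The HFD-IgG array was lowest, 1.36-fold below standard diet (-0.44 ± 0.20) and 1.38-fold below anti-VLA-4 (0.47 ± 0.20), while standard diet and anti-VLA-4 were within the scanner error (0.03). With normexp on all spots its HFD-IgG difference was -1.25, and without the 9 bright-background spots -0.58.

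Other Mup probes widened the picture to 13 probes. Mup2 had 542, 465 and 448 on the standard-diet, HFD-IgG and anti-VLA-4 arrays. Mup19, listed under an older locus name on the array, had 690, 760 and 721 on one probe and 330, 384 and 324 on the other. Mup6 had 12.6, 6.93 and 12.3, so its HFD-IgG signal was 1.83-fold below standard diet (-0.87) and 1.77-fold below anti-VLA-4. The Mup9 probes disagreed: probe 1 had 450, 676 and 617, with HFD-IgG above standard diet by 0.59 on the log2 scale (-0.07 with normexp on all spots), and probe 2 had 10.5, 6.44 and 9.59, with HFD-IgG 1.62-fold below it (-0.70).

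Over all 13 Mup probes, the HFD-IgG difference from standard diet ran from -0.87 to 0.59 with a median of -0.06, and 7 were below 0. Anti-VLA-4 over HFD-IgG ran from -0.58 to 0.82 with 9 below 0, and anti-VLA-4 over standard diet from -0.81 to 0.46 with 10 below 0. Differences beyond the scanner error numbered 8, 8 and 6 in these comparisons, and 0 were past 2-fold. Signs of small Mup differences depended on the processing: with normexp on all spots the HFD-IgG difference from standard diet turned negative for Mup4 probe 1 (-0.56) and both Mup20 probes (-0.59 and -0.76) and positive for Mup4 probe 2 (0.25).

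The 3 Mup probes with a relative signal under 100 (Mup4 probe 2, Mup6 and Mup9 probe 2) were all lower on HFD-IgG than on standard diet (-0.87 to -0.23) and all higher on anti-VLA-4 than on HFD-IgG (0.17 to 0.82), except that Mup4 probe 2 turned to 0.25 and -0.11 with normexp on all spots. Of the 10 with a signal over 100 on every array, 4 were below 0 and 6 above 0 in the first comparison (median 0.05), and 9 were below 0 in the second, with Mup21 the exception, although Mup19 probe 1, Mup2 and Mup9 probe 1 were above 0 in 3, 3 and 2 of 5 alternatives there and Mup3 in 1 (0.005). These counts were noticed in the data and were not tested. Large differences were also uncommon among bright genes as a whole, which include the bright Mup genes. Of 281 genes whose mean log2 signal was at or above that of Mup21, 1 was at least 2-fold higher and 3 were lower on HFD-IgG than on standard diet. The central 90% of them lay between -0.49 and 0.39.

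**Figure D4:**
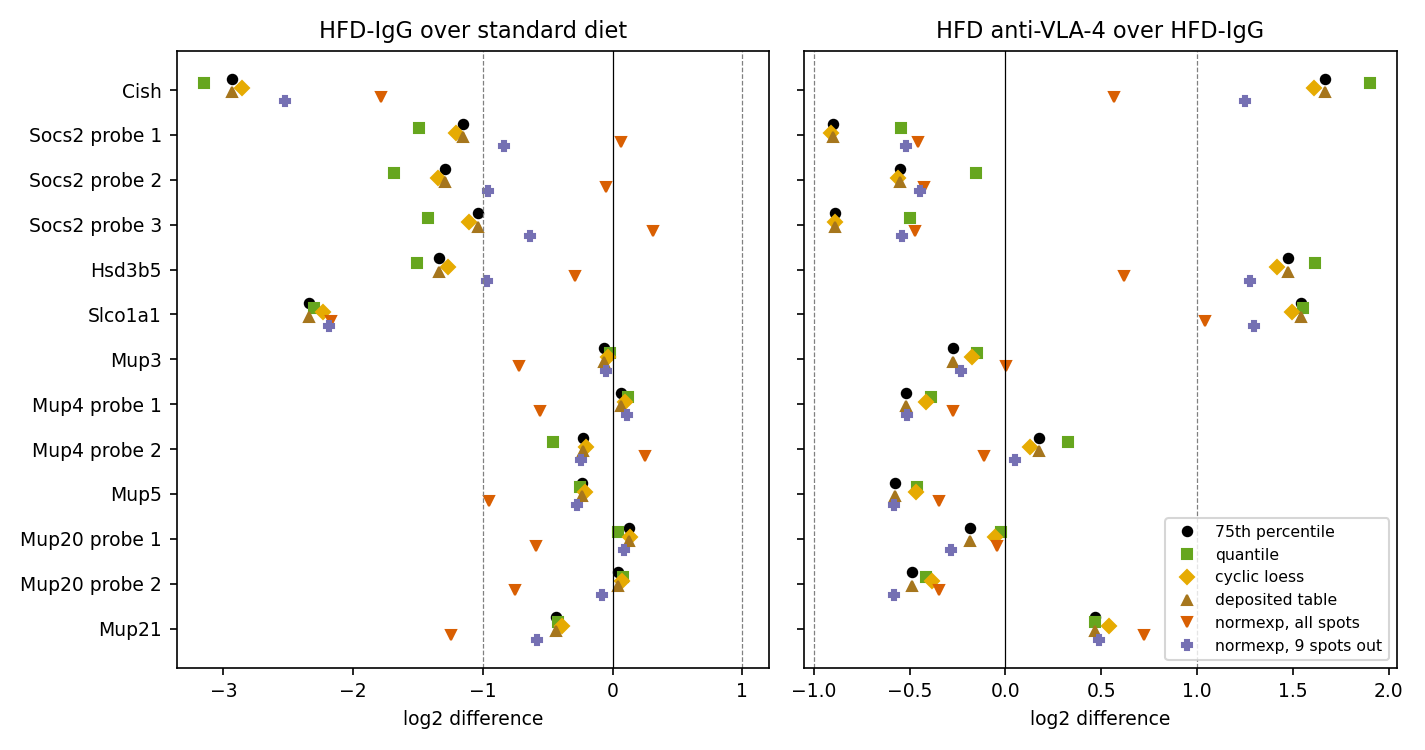
Log2 difference of each member probe under 6 ways of processing: scaling to the 75th percentile, quantile scaling, cyclic loess, the deposited value table, and normexp background correction with all spots or with 9 bright-background spots left out. The left panel is HFD-IgG over standard diet and the right panel anti-VLA-4 over HFD-IgG, with separate horizontal scales. On the left, normexp on all spots moves Socs2 probe 3 from -1.03 to 0.31 and Mup21 from -0.44 to -1.25, while Slco1a1 stays between -2.34 and -2.17.

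The pathway upstream of these genes was described from a list of 23 genes of the growth hormone receptor, JAK2, STAT5 and their regulators, which like the lists after it holds none of the members. On HFD-IgG against standard diet 3 were at least 2-fold higher, a smaller share than the 20.4% of all genes, and 0 were lower, against 2.41%. The median was 0.12, beside 0.04 for all genes, and was -0.14 with normexp on all spots. Ghr, the receptor, had a relative signal of 27.1, 32.9 and 34.2 on the standard-diet, HFD-IgG and anti-VLA-4 arrays. Jak2 had 1.18, 1.28 and 1.48. None of the 3 differences of either gene reached 2-fold.

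The STAT5 genes were higher on both high-fat diet arrays, by less than 2-fold. Stat5b had 3.37, 5.18 and 5.89 (0.62 and 0.81 above standard diet on the log2 scale) and Stat5a had 0.886, 1.35 and 1.28 (0.60 and 0.53). Sirpa, a signal-regulatory receptor that is also abundant on macrophages, was 9.05-fold higher on HFD-IgG than on standard diet. Socs1 was 3.50-fold higher, and Grb10, an adaptor that inhibits receptor kinases, at least 3.91-fold higher, since its standard-diet signal was not well above background. Socs1 was under 2-fold in 2 of 7 alternatives and Grb10 in 2 of 5.

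For anti-VLA-4 over HFD-IgG, 1 of the 23 genes was higher and 1 lower, against 1.9% and 16.5% of all genes, with a median of 0.07, beside -0.06 for all genes. Socs3, the SOCS protein induced by interleukin-6 and STAT3, had 1.24, 0.744 and 2.93 and was 3.94-fold higher on anti-VLA-4 than on HFD-IgG. Grb10 was at least 4.48-fold lower. Against standard diet, 4 of 22 genes were higher on anti-VLA-4 (Sirpa 5.84-fold, Prlr 3.13-fold, Socs1 3.03-fold and Socs3 2.36-fold) and 0 lower. Of all genes, 7.98% were higher and 3.39% lower. The medians were 0.32 for the list and 0.00 for all genes. Among the SOCS family, Cish and Socs2 were thus lower and Socs1 higher on HFD-IgG than on standard diet, while Socs3 was at -0.74; under normexp on all spots the sign for Socs2 turned on 2 of its 3 probes.

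Other known outputs of growth hormone and STAT5 were described from a list of 15 genes. On HFD-IgG against standard diet, 2 were at least 2-fold higher and 4 lower, against 20.4% and 2.41% of all genes, with a median of -0.16. Igf1, the main endocrine mediator of growth hormone, had 59.5, 63.4 and 71.6 on the standard-diet, HFD-IgG and anti-VLA-4 arrays, and Igfals, which holds IGF in its circulating complex, had 2.87, 3.67 and 3.40. Neither reached 2-fold in any comparison. Bcl6, a transcriptional repressor that growth hormone suppresses, had 1.85, 8.68 and 6.86 and was 4.69-fold and 3.70-fold above standard diet on the high-fat diet arrays.

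The 4 lower genes were Igfbp1 (8.37-fold), Egfr (4.49-fold), Igfbp2 (3.34-fold) and Onecut1 (2.71-fold). Onecut1 turned to a positive value in 1 of 7 alternatives (0.72). Igfbp3 was at least 3.25-fold higher on HFD-IgG and 3.24-fold lower on anti-VLA-4 than on HFD-IgG. Igfbp1, an IGF-binding protein that insulin represses, was 4.85-fold higher on anti-VLA-4 than on HFD-IgG. In that comparison 1 of the 15 was higher and 1 lower, against 1.9% and 16.5% of all genes. The list median was -0.11, beside -0.06 for all genes, and was above 0 in 4 of 7 alternatives. Against standard diet 1 was higher on anti-VLA-4 (Bcl6) and 3 lower (Onecut1 3.32-fold, Egfr 2.35-fold and Igfbp2 2.28-fold). Of all genes 7.98% were higher and 3.39% lower there. The list median was 0.01, and Onecut1 was again above 0 in 1 alternative (0.34).

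**Figure D5:**
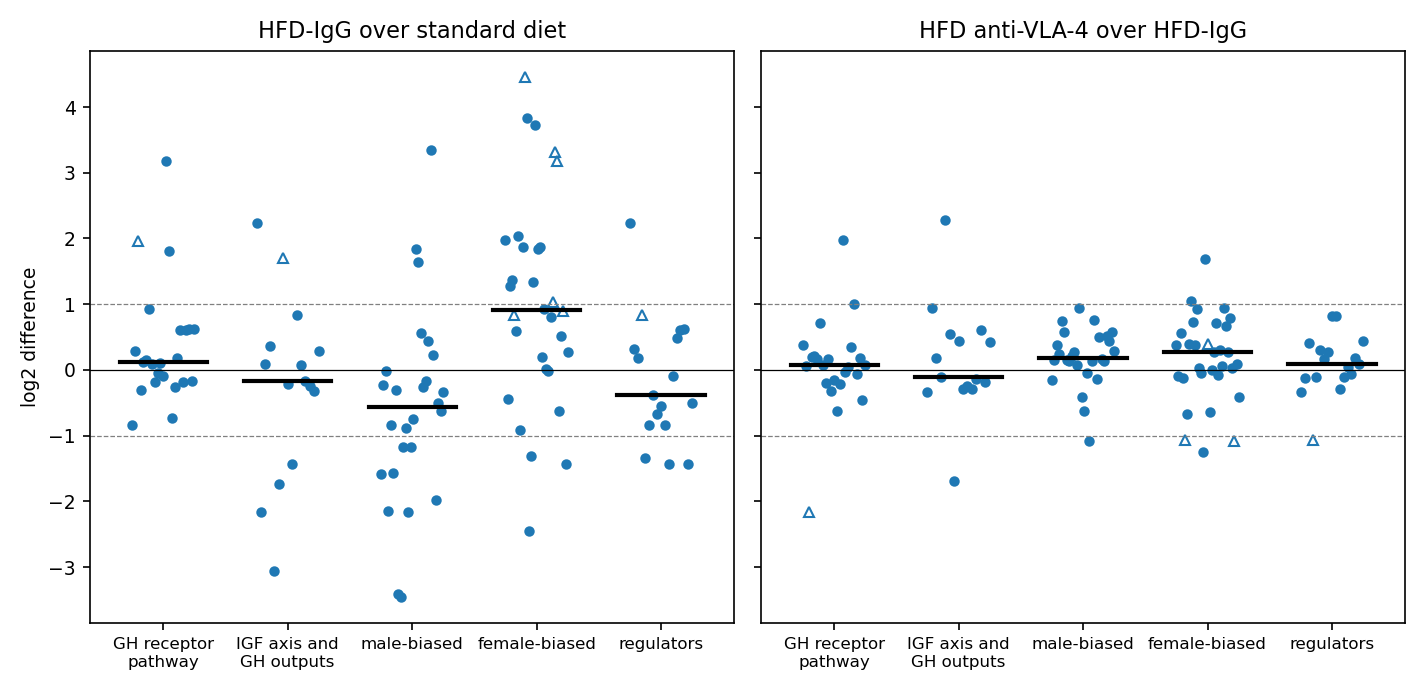
Log2 differences of the genes in 5 lists: growth hormone receptor pathway, IGF axis and other growth hormone outputs, male-biased genes, female-biased genes and regulators of sex-biased expression. Circles are genes, open triangles are lower bounds for genes not well above background on 1 array, lines are list medians and dashed lines mark 2-fold. On HFD-IgG over standard diet (left) the male-biased median is -0.57 and the female-biased median 0.91; on anti-VLA-4 over HFD-IgG (right) they are 0.18 and 0.27.

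Male-biased and female-biased liver genes are the wider programmes that the pattern of growth hormone release sets. Of 26 male-biased genes measured of 30 listed, 9 were at least 2-fold lower and 3 higher on HFD-IgG than on standard diet, against 2.41% and 20.4% of all genes. Their median was -0.57 (-0.99 to -0.46 over 7 alternatives), beside 0.04 for all genes, and 20 were below 0 and 6 above. The lowest were Cyp4a12b (10.95-fold) and Cyp4a12a (10.7-fold), a pair of near-identical male-specific fatty acid hydroxylases whose copies may share signal, then Egfr and Cspg5 (4.41-fold). Cspg5 had a positive value in 1 alternative. Slc22a7, a transporter of organic anions, was 10.2-fold higher, Hsd3b2 3.57-fold higher and Keg1 3.13-fold higher.

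Of 30 female-biased genes measured of 38 listed, 14 had a signal at least 2-fold higher and 3 a lower one on HFD-IgG than on standard diet, against 20.4% and 2.41% of all genes. Their median was 0.91 (0.36 to 1.54 over 7 alternatives), and 23 were above 0 and 7 below. Cyp2b9, a cytochrome P450 also induced by the receptor CAR, was 14.3-fold higher. Cyp2b13 was at least 22.0-fold, Slc22a27 at least 9.99-fold and Hamp2, a hepcidin, 13.2-fold higher. Cyp3a16 was 5.50-fold, Tox 2.69-fold and Fmo2 2.48-fold lower. Cux2, the transcription factor of female liver, was dim, clearing the background threshold with HFD-IgG only, and was at least 1.78-fold higher on HFD-IgG than on standard diet, under the 2-fold threshold.

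On anti-VLA-4 against HFD-IgG the male-biased list had 0 genes at least 2-fold higher and 1 lower (Keg1, 2.11-fold), with 20 of 26 above 0 and a median of 0.18. The female-biased list had 2 higher (Hamp2 3.24-fold and Cyp2a4 2.06-fold) and 3 lower of 31, against 1.9% and 16.5% of all genes, with a median of 0.27 that was -0.05 with normexp on all spots. Among the lower ones, Sult2a2 was at least 2.13-fold and Cux2 at least 2.10-fold lower, and Cux2 was past 2-fold in 0 of 5 alternatives. Under quantile scaling, cyclic loess and both normexp fits 0 of the list were lower, with 5, 3, 2 and 2 higher. Against standard diet, anti-VLA-4 had 2 male-biased genes higher and 8 lower, with a median of -0.13. The higher ones were Slc22a7 (11.4-fold) and Hsd3b2 (3.46-fold). The lowest were Cyp4a12a (9.77-fold), Cyp4a12b (9.48-fold), Cspg5 (3.73-fold) and C6 (3.33-fold). In the same comparison 14 of 29 female-biased genes were higher and 3 lower, against 7.98% and 3.39% of all genes, with a median of 0.86. Hamp2 was 42.8-fold, Cyp2b13 at least 28.8-fold, Cyp2b9 27.2-fold and Slc22a27 at least 15.9-fold higher, and Cyp3a16 5.36-fold, Fmo2 2.57-fold and Tox 2.52-fold lower. Cyp4a12a and Cyp4a12b therefore stayed low on both high-fat diet arrays, whereas Hsd3b5 was low on HFD-IgG and near standard diet on anti-VLA-4.

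Among 17 transcription factors tied to sex-biased or hepatocyte expression, 1 was higher on HFD-IgG than on standard diet (Bcl6) and 3 were lower. The shares of all genes were 20.4% and 2.41%, and the list median was -0.39. The 3 lower factors were Onecut1, Tox and Foxa1 (2.54-fold). The lists share genes, so their counts are not separate. Bcl6 and Onecut1 are also in the list of growth hormone outputs, and Tox and Cux2 are also in the female-biased list. Egfr is in both the list of outputs and the male-biased list. On anti-VLA-4 against HFD-IgG 0 were higher and 1 was lower (Cux2), against 1.9% and 16.5% of all genes, with a median of 0.09. Of 16 measured against standard diet, 1 was higher and 3 lower on anti-VLA-4, including Foxa1 (2.73-fold), against 7.98% and 3.39% of all genes. The median there was -0.04, and it was above 0 with quantile scaling and cyclic loess (0.03 and 0.04).

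Markers of other liver cells differed between the same arrays. Hepatocyte markers were abundant throughout, with a summed relative signal of 4929, 4650 and 4663 on the standard-diet, HFD-IgG and anti-VLA-4 arrays. Of 15 measured, 1 was at least 2-fold lower on HFD-IgG than on standard diet, with a median of -0.35, but with normexp on all spots 8 were lower, with a median of -1.05. Kupffer cell markers summed to 11.1, 73.1 and 55.4, and 13 of 13 were at least 2-fold higher on HFD-IgG than on standard diet (median 2.69). Sinusoidal endothelial markers summed to 15.5, 59.2 and 35.6, with 10 of 12 higher (median 2.84), and stellate cell markers to 3.46, 32.9 and 16.3, with 11 of 12 higher (median 3.01). For HFD-IgG over standard diet without normexp, 20.4% of all genes passed 2-fold upwards and 2.41% downwards, with a median of 0.04. With the filter on both arrays only 4 stellate markers were measured, and 4 were higher (median 3.13). The other stellate markers were well above background on 1 array only, so their differences are lower bounds.

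On anti-VLA-4 against HFD-IgG, 0 of 13 Kupffer, 4 of 12 endothelial and 6 of 12 stellate markers were at least 2-fold lower, with medians of -0.42, -0.92 and -1.002. Over all genes 16.5% were lower, with a median of -0.06. With normexp on all spots 1 endothelial and 1 stellate marker were lower (medians -0.59 and -0.52), and without the 9 bright-background spots 2 and 2 (-0.84 and -0.74). Markers of T, NK and B cells summed to 28.9, 14.5 and 19.4, carried by Cd4. Of 6 measured, 3 were higher and 1 lower on HFD-IgG than on standard diet, against 20.4% and 2.41% of all genes. With the filter on both arrays 3 were measured, with 0 higher and 1 lower. The higher ones were therefore well above background on 1 array only, and their differences are lower bounds. Cd8a, Cd79a, Ms4a1 and Klrb1c were not well above background on any array. The part of non-hepatocyte RNA in the members' differences was not tested. 

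Probe composition also went with the differences over all genes. Of genes whose probe held over 60% purines, 46.9% were at least 2-fold higher on HFD-IgG than on standard diet, against 8.24% where the probe held at most 40%. Genes at least 2-fold lower made up 0.949% and 3.45% of these classes. The probes of Cish and Hsd3b5 held 51.7% and 48.3% purines, those of Socs2 53.3% to 56.7% and that of Slco1a1 38.3%, and lower genes made up 2.25%, 2.75% and 3.45% of the classes over 50% to 60%, over 40% to 50%, and at most 40%. For anti-VLA-4 over HFD-IgG, higher genes made up 1.34%, 1.98% and 4.61% of those classes. The part of probe composition in the members' differences was not tested.

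The genes most like each of the 4 variable members were taken as the 3 of 12094 named genes whose centred log2 signals over the 3 arrays lay closest, as a Euclidean distance. With 3 arrays such likeness is a description. For Cish they were Igfbp1 (distance 0.45), Ppp1r3g (0.59) and Egfr (0.61), and for Slco1a1 they were Pfkfb2 (0.41), Malat1 (0.42) and Egfr (0.44). For Hsd3b5 they were Mirt1 (0.09), Ang (0.11), an angiogenin ribonuclease gene, and Lhx3 (0.12). For Socs2 they were Csad (0.08), a taurine synthesis enzyme, Nceh1 (0.10) and Cidec (0.11), a lipid droplet protein. Csad ran in the Socs2 order, with 34.8, 14.6 and 7.88 on the standard-diet, HFD-IgG and anti-VLA-4 arrays, and Ang in the Hsd3b5 order, with 30.3, 13.2 and 33.4.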

How the data were processed

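Hepatocyte RNA of 3 groups of mice was read on single-colour Agilent arrays, 1 array per group. Deposited spot intensities came from Agilent Feature Extraction (version 11.0.1.1 in the submitters' processing notes), which had detrended them, per the file headers. In the deposited table of values each entry is a linear ratio, a processed signal divided by the 75th percentile of its array, and differed from the scanner output by at most a relative deviation of 2.0e-08; its column medians were 0.787, 0.796 and 0.810. Marks for dim, uneven and outlying spots are other values, written by Feature Extraction per the file headers.

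Each processed signal was divided by its array's 75th percentile and put on the log2 scale. Spots marked as uneven or outlying were dropped before averaging over a probe. A RefSeq table (GRCm38.p6) named 66.1% of 39429 probes by accession and the others kept the name on the array. Each gene took its probe of highest mean signal, and was compared where it was well above background on at least 1 array of the pair; where the other array was not, the fold is a lower bound against that array's lowest signal well above background or the probe's own. Genes at least 2-fold different were counted, with no test.

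The members and lists were chosen with earlier results of these data known. Genes named were all members with every probe, all other Mup probes, up to 4 highest and 4 lowest list genes past 2-fold in each comparison, the pathway genes Ghr, Jak2, Stat5a, Stat5b, Igf1, Igfals, Bcl6 and Cux2, and the 3 genes most like each variable member. A list gene that this rule names is not reported here. Alternatives were quantile scaling, cyclic loess, normexp with offset 50, the mean over probes, a filter on both arrays, the deposited table and, chosen after seeing the data, normexp without 9 bright-background spots. For a single probe the deposited table repeats the main values. The steps were tested on simulated data. Python 3.11.15, numpy 2.4.6, pandas 2.3.3, R 4.3.3 and limma 3.58.1 were used. Columns were matched to samples with 0 left over.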

Additional observations from a re-analysis of the deposited data

How the results depend on the processing

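Normexp background correction on all spots was the alternative that moved members most. It turned the HFD-IgG difference from standard diet of Socs2 probes 3 and 1 to 0.31 and 0.062, and left 1 member at least 2-fold higher on anti-VLA-4 than on HFD-IgG (Slco1a1). Its 3 lower members on HFD-IgG were Cish, Slco1a1 and Mup21 in place of the 4 named above, and for anti-VLA-4 over standard diet its 3 were Cish, Mup5 and Slco1a1, without Socs2. The local background exceeded 100 on 9 spots (7 on HFD-IgG, up to 31618.5, and 2 on anti-VLA-4, up to 15507), beside array medians of 49 to 54. Leaving them out moved the median corrected value from 474 to 120 on HFD-IgG and from 307 to 98.8 on anti-VLA-4, with 2 members lower on HFD-IgG (Cish and Slco1a1). In the other alternatives 4 members were lower there.

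Counts over all genes moved by over 1.5 times as follows. For HFD-IgG over standard diet, genes higher were 2420 with quantile scaling, 8951 with normexp, 1534 with the filter on both arrays, 1447 in the deposited table and 1814 with the later normexp, and genes lower were 2697 with quantile scaling, 899 with cyclic loess, 860 with normexp and 217 with the later normexp. For anti-VLA-4 over HFD-IgG, genes higher were 2468, 716, 68, 278, 262 and 100 with quantile scaling, cyclic loess, normexp, both arrays, the deposited table and the later normexp, and genes lower were 2056, 150, 1235, 739 and 1092 without cyclic loess. For anti-VLA-4 over standard diet, genes higher were 6159, 1021, 1001 and 596 and genes lower 421, 378, 354 and 210 with normexp, both arrays, the deposited table and the later normexp. The share of higher among called genes was 89.4%, 10.3% and 70.2% in the 3 comparisons; it was 47.3%, 54.6% and 57.2% with quantile scaling and 91.2%, 31.2% and 93.6% with normexp. Median shifts over 0.1 were -0.10 and 0.11 in the first 2 comparisons with quantile scaling, and 0.44 and 0.28 in the first and last with normexp.

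Of 195 alternative differences of member probes, 141 moved by no more than the scanner error, 52 by more, 30 of them with normexp on all spots, and 2 reversed a called difference. The 141 include every difference of the deposited table, which repeats the main values and could not move. With 1 array in each group there was no replicate to leave out. No paired analysis was possible because each group has 1 array. The number of arrays limits the precision.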

Other observations

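Hsd3b5 has close relatives in a cluster on chromosome 3 that encode 3-beta-hydroxysteroid dehydrogenases, and their probes ran the other way on the HFD-IgG array; these genes were chosen after their values were seen. Hsd3b3 had a relative signal of 14.9, 54.2 and 42.7 on the standard-diet, HFD-IgG and anti-VLA-4 arrays, 3.65-fold above standard diet on HFD-IgG. Hsd3b6 had 0.241, 0.974 and 0.991, 4.04-fold above standard diet. The 2 Hsd3b2 probes were 3.57-fold and 4.56-fold above it. All 4 of these probes were past 2-fold on HFD-IgG under all 5 alternatives for single probes, where Hsd3b5 was 2.53-fold lower. Among those 5 the deposited table repeats the main values and could not differ. Anti-VLA-4 and HFD-IgG were under 2-fold apart for all 4, while Hsd3b5 was 2.78-fold higher on anti-VLA-4. Hsd3b7, the bile acid synthesis enzyme on chromosome 7, had 141, 136 and 158 and stayed under 2-fold. Hsd3b1 and Hsd3b4 were not well above background on any array.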
